A study of Mus musculus with 18 samples.

Results

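A set of 7 genes was followed across the 18 libraries: the type 2 cytokines Il4, Il5 and Il13, the cytokines Il10 and Il24, and the transcription factors Gata3 and Maf. They were chosen by gene symbol, and where a table had several distinct entries for a symbol the entries were summed. All 7 were found in both deposited tables, among 22783 symbols in the first and 16639 in the second. Naive CD4+ T cells came from spleens of C57BL/6 mice, were purified by FACS and stimulated through CD3 and CD28, and gave RNA on day 4. In the genotype experiment, cells of Egln1fl/fl Egln2fl/fl Egln3fl/fl Cd4Cre mice (tKO) and of Cd4Cre controls (WT) were each grown with 0, 0.2 or 2 ng/ml TGF-b, a cytokine that restrains helper T cells and induces regulatory T cells, with 2 libraries in each of the 6 groups. Both genotypes carried Cd4Cre, a recombinase driven by a Cd4 promoter that is active from thymic development on, so the floxed genes can be lost in CD4 and CD8 T cells before the cells were sorted and activated. In the inhibitor experiment, wild-type cells received 2 ng/ml TGF-b, with vehicle or with dimethyloxalylglycine (DMOG) at 1 mM, with 3 libraries in each group. DMOG competes with 2-oxoglutarate and inhibits the products of Egln1, Egln2 and Egln3, the PHD oxygen sensors, together with other enzymes of their class. Ages of the mice are not given in the labels used here. Nothing in the labels says that libraries of a group came from separate animals or cultures. P-values therefore measure the spread between these libraries, which may be technical, though tKO libraries differed in Y-linked RNA (below).

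Th2 cells are the helper T cells of the response to worms and allergens. IL-4 drives their differentiation and B cell class switching, IL-5 supports eosinophils, and IL-13 acts on epithelium and smooth muscle. GATA3 is the factor that defines the lineage: it binds and opens the locus in which Il4, Il13 and Il5 lie beside the DNA repair gene Rad50. c-MAF, the product of Maf, activates Il4 in Th2 cells and Il10 in several helper subsets. IL-10 restrains immune responses, and IL-24, encoded near Il10, is a cytokine of the same family that Th2 cells can secrete. PHD enzymes mark HIF transcription factors for degradation when oxygen is present.

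Values are FPKM, a fragment count corrected for transcript length and library size, which sets genes of different length on one scale, and read depth is unknown. Sums over all symbols ran from 521172 to 834683 FPKM in the genotype table and from 386268 to 443734 in the inhibitor table, and replicate libraries had an r across genes of 0.960 to 0.997. Egln1 stood at 20.4 to 44.3 FPKM in WT and 92.8 to 121.5 in tKO, and Egln3 at 5.68 to 18.7 and 77.4 to 140.2. Egln2 went the other way, at 35.6 to 48.8 FPKM in WT and 19.9 to 39.0 in tKO, below WT without overlap at each dose but not called (adjusted p = 0.307, 0.0540 and 0.106 at 0, 0.2 and 2 ng/ml). These gene-level values do not separate the exons between the loxP sites. The 3 tKO libraries numbered 1 held Eif2s3y, a Y-linked gene, at 42.0 to 45.5 FPKM, and it was listed at 0 in the other 9 libraries of the genotype table. Where that 0 is real, the tKO libraries of a group did not share all their donors. T cell markers were present throughout, 8 of 8 measured genes at 1 FPKM or more in each genotype group, with summed levels of 1910 to 2459 FPKM in WT and 1473 to 1778 in tKO. Of these 8, 1 was called lower in tKO at 0 ng/ml, 4 at 0.2 and 4 at 2 ng/ml, and none higher. Over all genes, 9.64%, 15.5% and 16.0% were called in these comparisons. Other cells that make type 2 cytokines had few transcripts. Of 9 mast cell and basophil genes, summed levels were at most 4.06 FPKM, and Mcpt8, Mcpt4, Fcer1a, Tpsb2 and Prss34 were listed at 0 in every library of the genotype table. Hdc averaged 1 FPKM or more in WT at 0.2 and in tKO at 0 ng/ml, and Kit in both genotypes at 2 ng/ml. Of 4 eosinophil genes measured, Epx and Ear1 were at 0 in all of these groups and the sum reached at most 3.04 FPKM. Prg2 averaged 1 FPKM or more in tKO at 0 and 0.2 ng/ml. The 4 genes summed to 0 in WT at 0 and 0.2 ng/ml and to at most 0.271 FPKM at 2 ng/ml. In tKO they summed to 1.215 to 1.253, 0 to 3.04 and 0.426 to 1.435 FPKM at 0, 0.2 and 2 ng/ml. B cell genes summed to 17.6 to 44.5 FPKM in WT and 42.7 to 94.0 in tKO without TGF-b. At 0.2 ng/ml they summed to 39.0 to 66.9 FPKM in WT and 18.5 to 27.8 in tKO, and at 2 ng/ml to 16.8 to 67.2 and 31.7 to 32.2. None of the 5 tested B cell genes was called between the genotypes at any dose. The part of these transcripts in the results below was not tested. In bulk RNA, fewer cells of a type and less RNA per cell cannot be told apart.

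Without TGF-b, tKO cells carried RNA of all 3 type 2 cytokines, which in WT cells stood at or near 0. Il4 was at 0.337 FPKM and 0 in the WT libraries and at 37.9 and 56.4 in the tKO libraries. Il5 was listed at 0 in both WT libraries and read 62.4 and 48.9 FPKM in tKO. Il13 was at 0 in WT and at 12.5 and 20.7 FPKM in tKO. Each tKO library exceeded both WT libraries for each of the 3 genes. On the scale of log2(FPKM + 1), used for all differences and understating those of low genes, tKO exceeded WT by 5.35 ± 0.38 for Il4 (SE; limma adjusted p = 1.90e-06), 5.81 ± 0.58 for Il5 (adjusted p = 3.28e-05) and 4.10 ± 0.41 for Il13 (adjusted p = 3.32e-05). Adjusted p-values are limma's, with Benjamini-Hochberg adjustment over all genes of a table, two-sided, and a gene is called under 0.05. No fold is given for Il5 and Il13, because WT was at 0. Together with Il24 and Gata3, 5 of the 6 genes that could be tested were called higher in tKO without TGF-b, where 9.64% of 10354 tested genes were called and 5.34% were called higher. Il4, Il5, Il13 and Il24 reached a mean of 1 FPKM, the minimum for testing, only through tKO libraries (at most 0.915 FPKM in WT). Without high tKO values they would not have been tested, so counts of called members here and below partly follow from this minimum. All 5 calls held under every alternative of scaling, filtering, pseudocount and fit that was run, without each library in turn, and without the 3 tKO libraries that carried Eif2s3y.

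**Figure D1:**
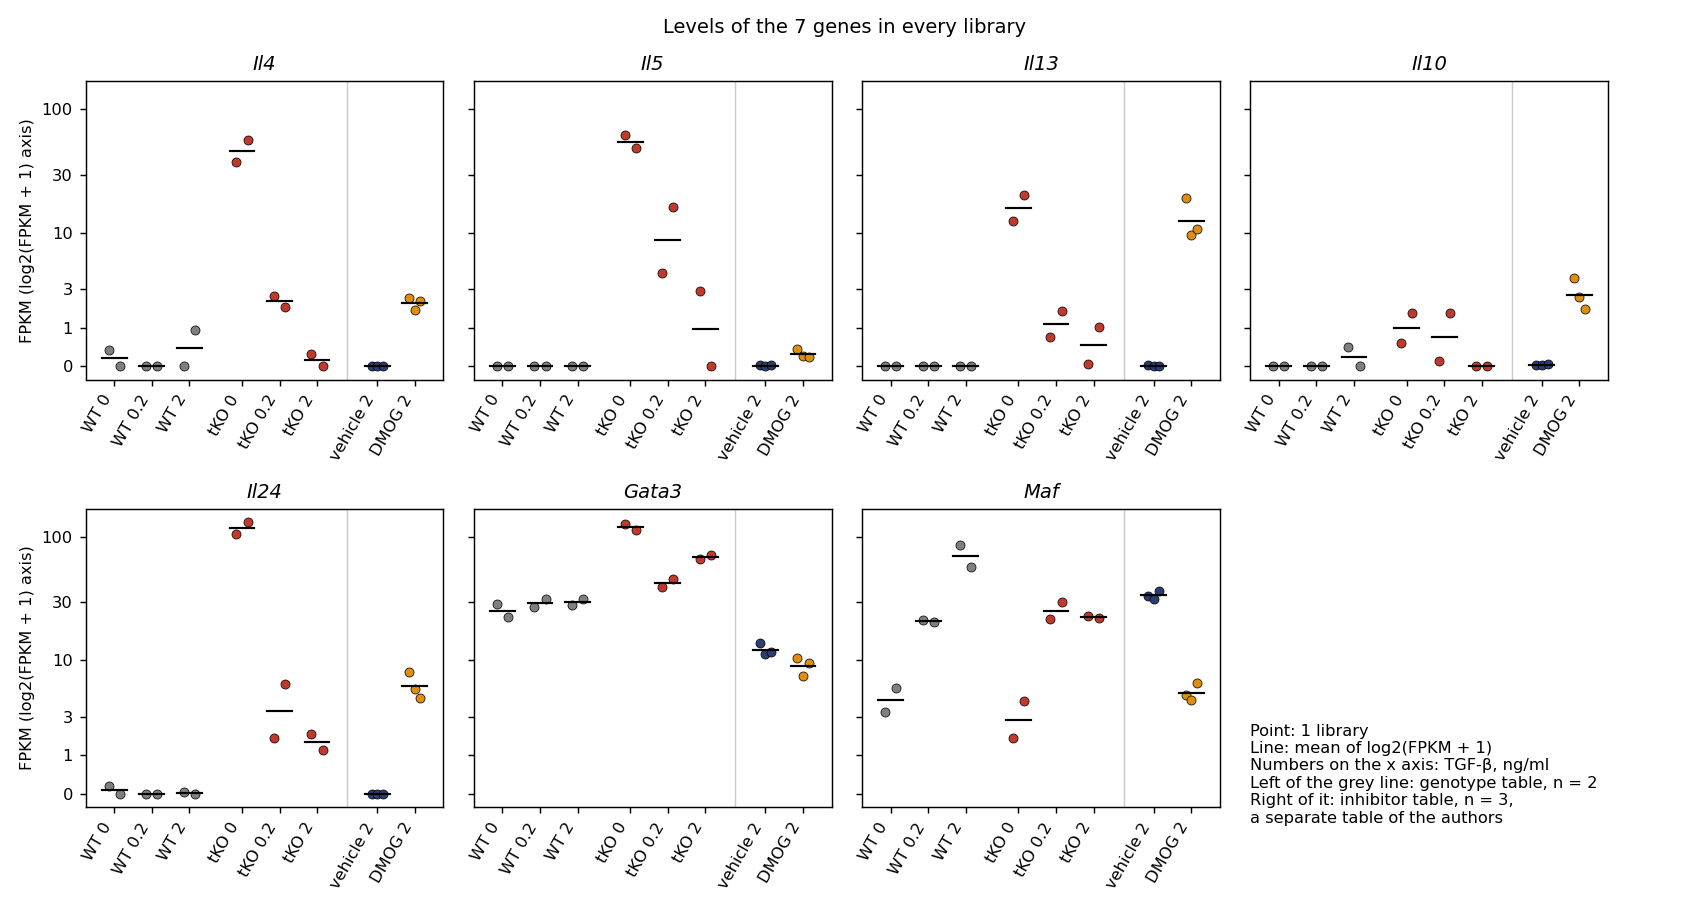
FPKM of each gene in every library (points) and the mean of log2(FPKM + 1) in each group (lines), by genotype, treatment and TGF-b in ng/ml. Il4, Il5, Il13 and Il24 are high in tKO at 0 ng/ml and low in every WT group, Gata3 lies above WT in all tKO groups, and Maf is higher at both TGF-b doses than at 0 ng/ml in either genotype.

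The regions just upstream of the 3 type 2 cytokine genes are shown because these genes lie on one chromosome, rose together and are known targets of GATA3, and Il4 also of c-MAF. They are the 250 bases before the annotated start, from RefSeq on GRCm38.p6, which is not the build of the expression tables. Il4 lies on the minus strand (chr11:53618666-53618915), as does Il13 (chr11:53634703-53634952), and Il5 on the plus strand (chr11:53720544-53720793). Each is written 5′ to 3′ along the gene. Capitals mark a GATA motif (AGATAA, or the same with a final G, a first T or both) or TGCTGA, the core half-site of MAF proteins, on either strand.
Il4: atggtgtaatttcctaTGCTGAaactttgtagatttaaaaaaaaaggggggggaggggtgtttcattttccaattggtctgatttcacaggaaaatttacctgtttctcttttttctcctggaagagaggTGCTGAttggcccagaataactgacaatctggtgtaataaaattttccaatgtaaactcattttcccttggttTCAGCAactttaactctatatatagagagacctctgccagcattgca
Il13: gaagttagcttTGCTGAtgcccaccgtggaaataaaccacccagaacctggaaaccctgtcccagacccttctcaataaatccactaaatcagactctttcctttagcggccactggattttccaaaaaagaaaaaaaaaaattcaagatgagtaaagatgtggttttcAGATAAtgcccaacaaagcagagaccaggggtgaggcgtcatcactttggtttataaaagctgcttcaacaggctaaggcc
Il5: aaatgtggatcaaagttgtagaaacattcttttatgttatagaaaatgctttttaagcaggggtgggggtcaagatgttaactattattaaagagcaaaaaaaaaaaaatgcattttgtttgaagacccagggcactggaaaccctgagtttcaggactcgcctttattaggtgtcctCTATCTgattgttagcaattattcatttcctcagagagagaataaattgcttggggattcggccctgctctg
The Il4 window held 3 copies of TGCTGA, beginning at positions -234, -120 and -47 from the start, and no GATA motif. The Il13 window held 1 copy of each, TGCTGA at -239 and AGATAA at -81. The Il5 window held 1 GATA motif at -72, on the opposite strand. A second annotated Il4 start inside the gene (chr11:53617339-53617588 upstream) had 1 GATA motif at -80 and no TGCTGA. Upstream of Gata3 (chr2:9878601-9878850) there was 1 TGCTGA at -90. Of 32817 RefSeq windows of this length, 26.6% held a GATA motif and 16.1% held TGCTGA, so single matches are common. The core of the HIF response element, ACGTG or GCGTG, was in none of these 5 windows and in 38.6% of all windows. GGAAA, the core of NFAT sites, occurred 5 times upstream of Il4, 4 times upstream of Il13 and 2 times upstream of Il5, and 55.6% of all windows held it. The AP-1 motifs TGAGTCA and TGACTCA were in none of the 5 windows and in 4.5% of all. A match describes letters and is no evidence of binding. RefSeq windows were matched for 4 of the 7 genes, not for Il10, Il24 or Maf.

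Of the 5 cytokines of the set, Il24 had the highest mean RNA level in tKO cells without TGF-b. Its level was 0.152 FPKM and 0 in the WT libraries and 104 and 129.5 in the tKO libraries, with no overlap. The difference was 6.77 ± 0.41 (adjusted p = 4.04e-07). Within the tKO group the mean levels were 119 FPKM for Gata3, 117 for Il24, 55.6 for Il5, 47.2 for Il4 and 16.6 for Il13. The Gata3 and Il24 libraries overlapped in range, as did those of Il5 and Il4, while Il13 lay below all of them. Il10 remained low. It was listed at 0 in both WT libraries and read 0.516 and 1.58 FPKM in tKO without TGF-b, and at most 1.59 FPKM in any library of the genotype table. Its mean over that table was under 1 FPKM, the minimum for testing. When it was tested without that minimum, the difference without TGF-b was 0.98 with an adjusted p of 0.451 (0.187 with the minimum applied to the highest group). The Il10 entry spans 43137 bases (chr1:132878411-132921547, mm9), longer than the 5357 bases of Il24, so reads of other transcripts inside it may be included.

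Gata3 was expressed in every library. Without TGF-b it was at 29.0 and 22.9 FPKM in WT and at 125.8 and 111.8 in tKO, a ratio of means of 4.6. The difference was 2.16 ± 0.18 (adjusted p = 7.29e-06). Maf was low without TGF-b, at 3.32 and 5.68 FPKM in WT and 1.70 and 4.33 in tKO. Those ranges overlapped and the difference, -0.50 with a 95% interval from -1.20 to 0.20, was not called (adjusted p = 0.412). The tKO cells without TGF-b thus had the highest mean Il4 level and the lowest mean Maf level of the 6 groups. For Maf, their range overlapped that of WT without TGF-b.

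In tKO cells the cytokine RNAs were lower at both TGF-b doses than without it. Il4 fell from 37.9 and 56.4 FPKM to 2.53 and 1.91 at 0.2 ng/ml and to 0.254 and 0 at 2 ng/ml. Il13 fell from 12.5 and 20.7 FPKM to 0.697 and 1.70 and to 0.0332 and 1.03. Il24 fell from 104 and 129.5 FPKM to 1.71 and 6.22 and to 1.93 and 1.18. For Il5 the lower dose left 4.29 and 16.5 FPKM and the higher dose 2.87 and 0. At both doses, all tKO libraries of these 4 genes lay below those without TGF-b. As ratios of means, the level without TGF-b was 21.2 times that at 0.2 ng/ml for Il4, 29.5 times for Il24, 13.9 times for Il13 and 5.36 times for Il5.

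Tested across doses, the 4 cytokines and Gata3 were called lower and Maf higher in tKO, both at 0.2 against 0 ng/ml, where 2.48% of all genes were called (1.70% higher, 0.782% lower), and at 2 against 0 ng/ml, where 18.0% were (7.59% higher, 10.4% lower). At 2 ng/ml the differences were -5.399 ± 0.38 for Il4 (adjusted p = 2.57e-06), -5.53 ± 0.41 for Il24 (adjusted p = 3.03e-06), -3.56 ± 0.41 for Il13 (adjusted p = 1.46e-04) and -4.84 ± 0.58 for Il5 (adjusted p = 1.81e-04). At 0.2 ng/ml they were -3.88 for Il4 (adjusted p = 2.00e-04), -4.73 for Il24 (adjusted p = 7.03e-05), -3.00 for Il13 (adjusted p = 0.00162) and -2.55 for Il5 (adjusted p = 0.0376). The Il5 call at 0.2 ng/ml was lost without either tKO library at 0 ng/ml or the first at 0.2 ng/ml and without each single WT library, with adjusted p up to 0.172, and reached 0.340 with a pseudocount of 0.1. With that pseudocount the calls for Il4 (adjusted p = 0.0826) and Il13 (adjusted p = 0.148) at 0.2 ng/ml were lost as well. Between 0.2 and 2 ng/ml, with 9.57% of genes called (2.13% higher, 7.44% lower), Il4 fell by 1.52 (adjusted p = 0.0265) and Il5 by 2.29 (adjusted p = 0.0277), while Il13 (-0.56, adjusted p = 0.424) and Il24 (-0.81, adjusted p = 0.236; 0.0109 without tKO replicate 1 at 0.2 ng/ml) were not called. Both calls were lost without single tKO libraries of those doses, without either library at 0.2 or 2 ng/ml for Il4 (adjusted p from 0.0510 to 0.187) and without replicate 2 at either dose for Il5 (0.295 and 0.271). With the replicate number as a block within genotype the same number of members was called in each of the 3 tKO dose comparisons, beside 413 instead of 257 genes at 0.2 against 0 and 1542 instead of 991 at 2 against 0.2 ng/ml.

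Gata3 in tKO did not follow the dose in order. It was at 40.1 and 46.3 FPKM at 0.2 ng/ml and at 66.2 and 72.0 at 2 ng/ml, below the 111.8 and 125.8 without TGF-b in each case. The change from 0 was -1.44 ± 0.18 at 0.2 ng/ml (adjusted p = 9.88e-04) and -0.77 ± 0.18 at 2 ng/ml (adjusted p = 0.0115), and from 0.2 to 2 ng/ml it was 0.67 ± 0.18 (adjusted p = 0.0372). The fall at 2 ng/ml was not called when the libraries were brought to the same FPKM sum (-0.38, adjusted p = 0.187) or quantile normalized (-0.50, adjusted p = 0.0832), or without tKO replicate 1 at 0 ng/ml (0.0558) or either replicate at 2 ng/ml (0.0911 and 0.0613). The rise from 0.2 to 2 ng/ml was lost without any of those 4 tKO libraries (adjusted p from 0.0666 to 0.228) and without either WT library at 0.2 ng/ml (0.0544 and 0.0541). The fall at 0.2 ng/ml was called without each library in turn, but not without replicate 1 of tKO at all 3 doses (adjusted p = 0.0604). In WT, Gata3 stayed between 22.9 and 31.9 FPKM over the 3 doses, and none of its 3 dose comparisons was called (adjusted p = 0.783, 0.444 and 0.973).

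Maf rose with TGF-b in both genotypes. In WT its level of 3.32 and 5.68 FPKM without TGF-b became 21.6 and 20.8 at 0.2 ng/ml and 85.3 and 57.8 at 2 ng/ml, with no overlap between doses. The WT rise was 2.04 ± 0.33 to 0.2 ng/ml (adjusted p = 0.00584) and 3.73 ± 0.33 to 2 ng/ml (adjusted p = 1.43e-05), a ratio of means of 15.9. Maf was the single member called in each of the 3 WT dose comparisons, in which 1.59%, 15.7% and 0.435% of all genes were called, and 0.918%, 7.79% and 0.270% called higher, for 0.2 against 0, 2 against 0 and 2 against 0.2 ng/ml. In tKO it was at 22.0 and 30.1 FPKM at 0.2 ng/ml and 23.5 and 22.4 at 2 ng/ml, 2.82 ± 0.33 (adjusted p = 5.80e-04) and 2.66 ± 0.33 (adjusted p = 1.99e-04) above 0 ng/ml. Between 0.2 and 2 ng/ml the tKO ranges overlapped (-0.16, 95% interval -0.86 to 0.54, adjusted p = 0.802), while WT rose by 1.68 (adjusted p = 0.0421). That WT rise was not called without any 1 of the 4 WT libraries at those doses (adjusted p from 0.135 to 0.295), nor without either tKO library at 2 ng/ml (0.102 for both). The WT rise to 0.2 ng/ml was lost without WT replicate 1 at 0 ng/ml (adjusted p = 0.106) or either library at 0.2 ng/ml (0.0704 and 0.0629).

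Whether the dose response differed between the genotypes was tested as an interaction. From 0 to 2 ng/ml, 4 of the 6 tested genes changed differently, all more negatively in tKO, where 2.97% of all genes were called and 1.43% in that direction: Il4 by -5.66 ± 0.54 (adjusted p = 4.89e-04), Il24 by -5.46 ± 0.57 (adjusted p = 5.96e-04), Il13 by -3.56 ± 0.58 (adjusted p = 0.00655) and Il5 by -4.84 ± 0.82 (adjusted p = 0.00801). These cytokines were at or near 0 in WT at every dose, so a fall could not have been seen there. For Il5 and Il13, at 0 in all WT libraries, the value equals the change in tKO. Gata3 (-0.999, adjusted p = 0.0562) and Maf (-1.07, adjusted p = 0.229) were not called. Gata3 was called with the replicate number as a block (0.0435), or as a block within genotype (0.0392), with only the libraries compared (0.0362), with a pseudocount of 5 (0.0463) and without either tKO library at 0.2 ng/ml (0.0271 and 0.0266). From 0 to 0.2 ng/ml, with 0.435% of genes called and 0.174% in the negative direction, Il24 (-4.63, adjusted p = 0.00977), Il4 (-3.67, adjusted p = 0.0236), Gata3 (-1.63, adjusted p = 0.0242) and Il13 (-3.00, adjusted p = 0.0449) were called. When single libraries were omitted, between 0 and 3 members were called in this interaction. Without WT replicate 1 or 2 at 0 ng/ml none of them was called, with adjusted p of 0.0557 and 0.0528 for Il24 and 0.0887 and 0.0837 for Il4.

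With TGF-b present, 3 members differed between tKO and WT at each dose. At 0.2 ng/ml, Il4 was listed at 0 in both WT libraries, as were Il5, Il13 and Il24, and all 8 tKO values of these genes were above 0. Il5 (3.26 ± 0.58, adjusted p = 0.00205), Il24 (2.14 ± 0.41, adjusted p = 0.00301) and Il4 (1.68 ± 0.38, adjusted p = 0.00940) were called higher, against 15.5% of all genes called and 9.11% called higher. Il13 (1.10, adjusted p = 0.0904) and Gata3 (0.53, adjusted p = 0.0693) were not, although the tKO libraries of both lay above the WT libraries; both were called without tKO replicate 1 at that dose (0.0439 and 0.0415). The Il4 call was lost without either WT library at 0.2 ng/ml (adjusted p = 0.0557 and 0.0578), and with all symbols tested regardless of level none of the 3 was called (0.0520 to 0.0685).

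At 2 ng/ml, where 16.0% of genes were called, 7.82% higher and 8.16% lower, Gata3 and Il24 were higher and Maf was lower in tKO. Gata3 read 28.8 and 31.9 FPKM in WT and 66.2 and 72.0 in tKO, a ratio of means of 2.27 (difference 1.16 ± 0.18, adjusted p = 8.65e-04). Maf read 85.3 and 57.8 FPKM in WT and 23.5 and 22.4 in tKO, a ratio of 0.321 (difference -1.57 ± 0.33, adjusted p = 0.00543). Il24 stayed at 1.93 and 1.18 FPKM in tKO against 0.0385 and 0 in WT (1.31 ± 0.41, adjusted p = 0.0435). The Gata3 call held without each library in turn. That of Maf was lost without WT replicate 1 (adjusted p = 0.0596) or tKO replicate 2 (0.0526) at this dose, and that of Il24 without any single library at 0 or 2 ng/ml and without either WT library at 0.2 ng/ml (0.0568 to 0.236). Il4 (-0.31, 95% interval -1.13 to 0.52), Il5 (0.98, -0.28 to 2.23) and Il13 (0.54, -0.35 to 1.43) were not called. In tKO at 2 ng/ml the Gata3 level was above every WT library while Il4 and Il13 were at most 1.03 FPKM.

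**Figure D2:**
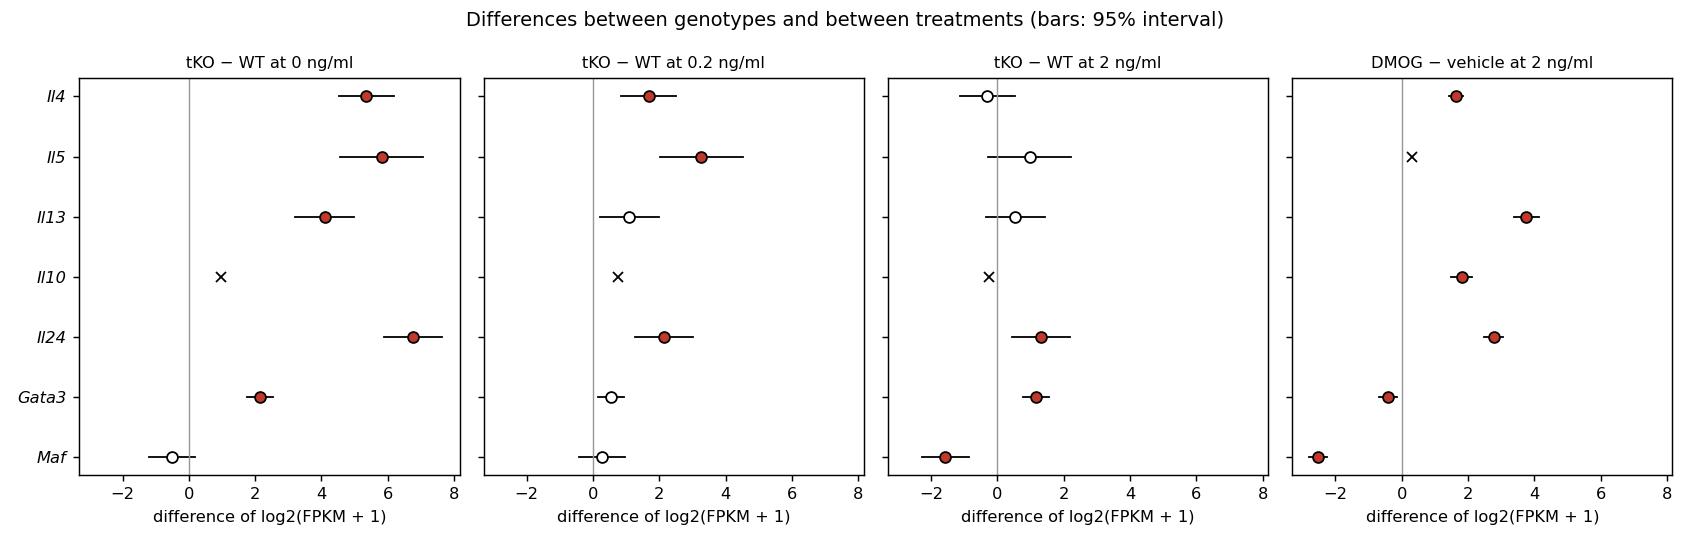
Differences of log2(FPKM + 1) for the 7 genes between tKO and WT at each TGF-b dose and between DMOG and vehicle, with 95% intervals. Filled points are called, open points are not, and crosses are genes below the minimum level for testing: the cytokine differences shrink with dose, and DMOG raises the 4 cytokines tested while Maf and Gata3 are lower.

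DMOG at 2 ng/ml TGF-b raised the 4 cytokines that passed the minimum level and lowered Maf. These 4 passed it only through the DMOG libraries. A cytokine as low with DMOG as with vehicle could not have been among them. Il13 was at 0.0223, 0 and 0 FPKM with vehicle and at 19.6, 9.55 and 10.7 with DMOG (3.76 ± 0.18, adjusted p = 7.45e-12). Il24 was at 0 in all vehicle libraries and at 7.90, 5.61 and 4.54 FPKM with DMOG (2.78 ± 0.13, adjusted p = 1.22e-11). Il4 was likewise at 0 with vehicle and at 2.41, 1.76 and 2.21 FPKM with DMOG (1.64 ± 0.10, adjusted p = 2.49e-10). No DMOG library overlapped the vehicle libraries for any of the 3 genes.

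Il10 was at 0.0206, 0.0218 and 0.0477 FPKM with vehicle and at 3.86, 2.49 and 1.78 with DMOG (1.81 ± 0.15, adjusted p = 1.09e-08), a ratio of means of 90.2 that rests on vehicle values near 0. Il5, whose mean was under the minimum of 1 FPKM, read 0.0176, 0 and 0.0135 FPKM with vehicle and 0.372, 0.207 and 0.173 with DMOG, and when every symbol was tested regardless of level it was called higher (0.30, adjusted p = 0.0124). With DMOG it was the lowest of the 7 genes. Maf, the activator of Il10 in other helper cells, fell from 33.6, 32.0 and 37.0 FPKM to 4.85, 4.38 and 6.35 (-2.52 ± 0.13, adjusted p = 1.82e-11), a ratio of 0.152. Gata3 was at 14.0, 11.2 and 11.8 FPKM with vehicle and at 10.5, 7.23 and 9.55 with DMOG (-0.41 ± 0.13, adjusted p = 0.0129). This Gata3 call was lost without vehicle replicate 1 (adjusted p = 0.0802) or DMOG replicate 2 (0.0662), and when every symbol was tested regardless of level (0.0844). Without DMOG replicate 1, Il4 and Il10 fell under the minimum mean of 1 FPKM and were not tested, and Il4 was likewise not tested without DMOG replicate 2 or 3. All 6 genes tested were called, but so were 60.8% of 9884 genes, 27.7% higher and 33.2% lower, so the count of called members is not set apart by itself. These 4 cytokines rose from levels of at most 0.0477 FPKM.

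The 2 tables were set up separately, so levels are placed side by side without a test. Relative to their own controls at 2 ng/ml, Gata3 was higher in tKO and lower with DMOG, and Maf was lower in both. Il4 and Il13 were not called in tKO at this dose and were called higher with DMOG. With DMOG the cytokines ranked in the order Il13 (mean 13.3 FPKM), Il24 (6.02), Il10 (2.71), Il4 (2.13) and Il5 (0.251), of which the Il10 range overlapped that of Il4, whereas in tKO without TGF-b Il24, Il5 and Il4 stood above Il13. T cell markers summed to 2103 to 2489 FPKM with vehicle and 989.9 to 1343 with DMOG. Of these 9 genes, 8 were called lower, as were 33.2% of all genes. B cell genes summed to 7.14 to 11.5 FPKM with vehicle and 1.06 to 1.46 with DMOG. The part of cell composition in the differences was not tested.

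Il5, Maf and Il10 each had a pair of entries with the same position in the genotype table. The Il5 entries (chr11:53533594-53538608, mm9) read 29.1 and 33.2 FPKM in the first tKO library without TGF-b and 22.6 and 26.3 in the second, so both rose. For Maf (chr8:118206840-118231095) the entries read 34.6 and 50.7 FPKM in the first WT library at 2 ng/ml and 6.67 and 16.9 in the first tKO library at that dose. Both were lower in tKO. Of the Il10 entries, the second was above 0 in a single library, tKO replicate 2 without TGF-b, where they read 1.02 and 0.563 FPKM.

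The neighbours of the cytokine genes were read to see how far the pattern reached along the chromosome, with positions in mm9. Il4 (chr11:53425963-53432167), Il13 (chr11:53444825-53448204), Rad50 and Il5 follow each other in this order, and Kif3a, a kinesin motor subunit, ends 8.20 kb to the left of Il4. Rad50 was at 20.1 and 17.3 FPKM in WT and at 29.0 and 19.5 in tKO without TGF-b (0.34 ± 0.24, adjusted p = 0.471) and was not called. Kif3a was at 7.08 and 4.86 FPKM in WT and 16.7 and 19.6 in tKO, called higher (1.47 ± 0.34, adjusted p = 0.0125), and lower again in tKO at 2 ng/ml, at 4.64 and 10.8 FPKM (adjusted p = 0.0226). The first Kif3a call was lost without replicate 2 of either group (adjusted p = 0.133 and 0.101) and the second without tKO replicate 1 at 2 ng/ml (0.242), without tKO replicate 2 at 0 ng/ml (0.159) or with libraries at the same FPKM sum (0.109). With DMOG, Kif3a did not follow Il4: it read 1.81, 1.59 and 1.92 FPKM with vehicle and 1.97, 1.98 and 1.89 with DMOG (0.09 ± 0.10, adjusted p = 0.443; 0.0384 after quantile normalization).

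Farther to the right lie Irf1, an interferon response factor, and the cytokine genes Csf2 and Il3, 158, 635 and 653 kb from Il4. Irf1 overlapped between the genotypes without TGF-b, at 223.2 and 104.0 FPKM in WT and 173.7 and 148.9 in tKO. In WT it fell by 1.46 from 0 to 2 ng/ml (adjusted p = 0.00387; 0.0564 without WT replicate 2 at 2 ng/ml), and it was higher in tKO than in WT at both 0.2 ng/ml (1.55 ± 0.28, adjusted p = 0.00236) and 2 ng/ml (1.58 ± 0.28, adjusted p = 0.00218). Both calls were lost when every symbol was tested regardless of level (0.0671 and 0.0613). Csf2, which encodes GM-CSF, went from 1.504 and 2.30 FPKM in WT to 136.9 and 211.0 in tKO without TGF-b (5.90 ± 0.41, adjusted p = 1.50e-06). It was still higher in tKO at 2 ng/ml, at 21.3 and 14.9 FPKM against 1.63 and 1.24 (2.96 ± 0.41, adjusted p = 3.16e-04). Il3 read 0.760 FPKM and 0 in WT and 17.5 and 37.5 in tKO without TGF-b. Of 9 tested neighbours of Il4, Il13 and Il5, 4 were called higher (Csf2, P4ha2, Il3 and Kif3a) and 1 lower (Pdlim4) without TGF-b, with a median difference of 0.778 against -3.36e-05 over all genes. Over all genes, 9.64% were called in that comparison and 5.34% called higher. Csf2 and Il3 are also counted among the Th2 effector genes below.

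Around Il24 (chr1:132778640-132783996) and Il10, no tested neighbour was called higher in tKO without TGF-b. Il20 and Il19, cytokine genes of the same family that lie between them, were at 0 in all libraries (Il20) or at most 0.687 FPKM (Il19) in the genotype table. Faim3, an Fc receptor gene of lymphocytes that ends 1.27 kb to the left of Il24, was at 10.2 and 8.99 FPKM in WT and 16.1 and 20.9 in tKO without TGF-b, and this was not called (0.87 ± 0.39, adjusted p = 0.208; 0.0464 with only the libraries of the comparison in the fit). Of 6 tested neighbours of Il10 and Il24, Ikbke was called lower in that comparison. Beside Gata3 and Maf, 5 neighbours were tested, of which Itih5 was called lower. With 9.64% of all genes called, neither count is set apart by itself. Taf3, the gene to the right of Gata3, was at 6.02 and 8.86 FPKM in WT and 7.76 and 7.59 in tKO.

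**Figure D3:**
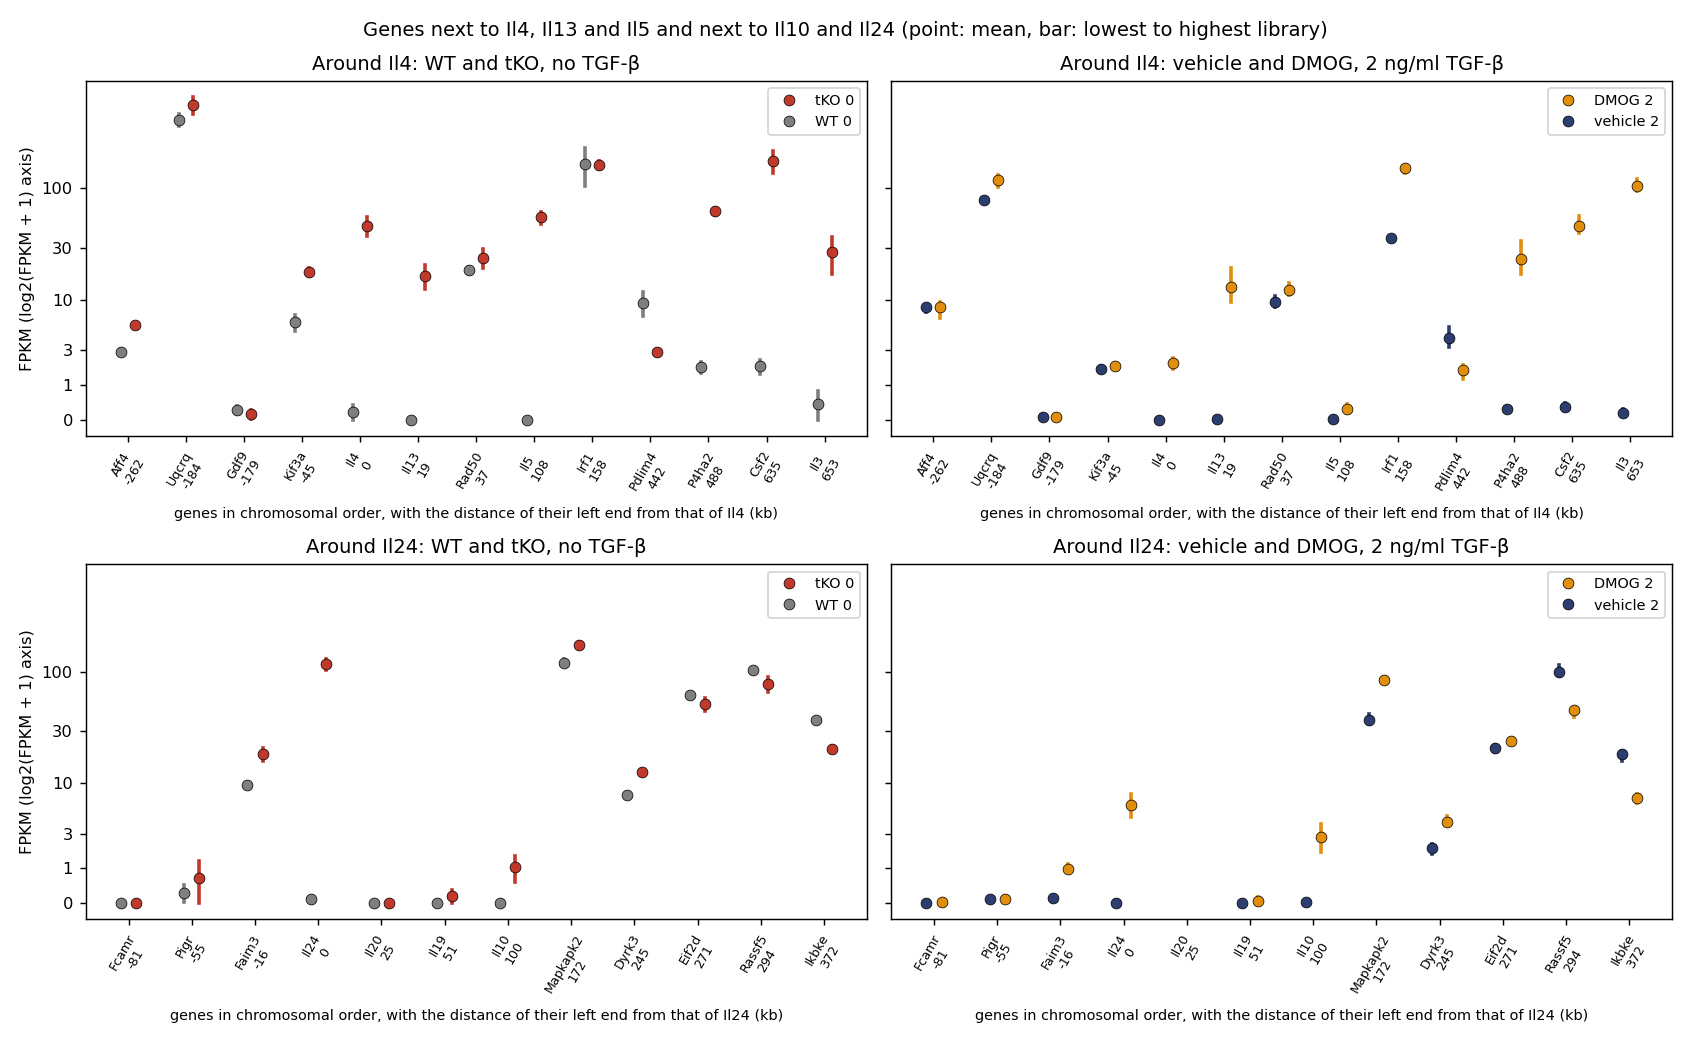
Mean FPKM (points) and the lowest to highest library (bars) of genes in chromosomal order around Il4 and around Il24, in WT and tKO without TGF-b and with vehicle and DMOG. Without TGF-b, Il4, Il13, Il5, Csf2 and Il3 stand far above WT in tKO while Rad50 between them and Il19 and Il20 beside Il24 do not, and with DMOG Il5 stays near 0 (a gene with no point has no value plotted).

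The wider Th2 pathway was read from 5 lists of 89 gene symbols in all, some of which are older names of a gene also listed. Without TGF-b, 64 were tested, of which 22 were called higher and 5 lower in tKO. At 2 ng/ml the counts were 26 and 2, and with DMOG 33 and 18 of 63. Over all genes, 9.64%, 16.0% and 60.8% were called in these comparisons. Medians over the tested list genes were 0.409, 0.883 and 0.387, beside -3.36e-05, -0.0186 and -0.0338 over all genes.

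Without TGF-b, 2 of 4 tested receptor genes of the member cytokines and 2 of 16 signalling genes were called. The receptor of IL-4 and IL-13, Il4ra, was at 86.6 and 64.2 FPKM in WT and 129.3 and 74.7 in tKO (0.39 ± 0.31, adjusted p = 0.524). Stat6, which carries its signal to the nucleus, was at 112.4 and 82.5 FPKM and at 111.1 and 66.5. Of 16 IL-4 and IL-2 signalling genes, Stat5a (1.24 ± 0.20, adjusted p = 0.00141) and Jak2 (1.11 ± 0.20, adjusted p = 0.00250) were called higher and none lower. At 2 ng/ml, 8 of the 16 were higher in tKO, of which Cish, a feedback inhibitor induced by STAT5, had the smallest p (1.37 ± 0.20, adjusted p = 4.39e-04) and Stat3 the largest difference (1.58 ± 0.30, adjusted p = 0.00306). With DMOG, 11 of 17 were higher and 1 was lower, and Il2, which encodes the T cell growth factor, rose from 1.37, 2.42 and 1.72 to 42.7, 24.1 and 27.6 FPKM (3.49 ± 0.17, adjusted p = 1.76e-11). The receptor of IL-10, Il10ra, rose without TGF-b from 4.12 and 4.68 to 19.2 and 13.8 FPKM (1.68 ± 0.31, adjusted p = 0.00338). Il10rb, its second chain, fell from 51.1 and 46.6 to 29.1 and 28.9 FPKM (-0.73 ± 0.21, adjusted p = 0.0425), a call lost without any single library except those of tKO at 0.2 ng/ml (0.0557 to 0.244).

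Transcription factors that favour Th2 cells were mostly higher in tKO without TGF-b: 9 of 16 were called higher, 1 lower and 6 were not called, with a median of 0.97. Nfil3, a factor that acts on type 2 cytokine genes, was at 15.5 and 17.3 FPKM in WT and at 104.1 and 90.1 in tKO (2.49 ± 0.21, adjusted p = 7.30e-06). Rbpj, the nuclear partner of Notch, rose by 1.65 ± 0.17 (adjusted p = 3.95e-05), Bhlhe40, a factor of cytokine-producing T cells, by 2.41 ± 0.30 (adjusted p = 1.59e-04), and Gfi1, which supports Th2 cell growth, by 2.27 ± 0.29 (adjusted p = 2.19e-04). Tcf7, which encodes TCF-1, an activator of Gata3 in early Th2 cells, was lower (-1.48 ± 0.18, adjusted p = 1.60e-04), opposite in sign to Gata3.

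At 2 ng/ml, 8 of the 16 factors were called higher and Tcf7 was again lower. Of those 16 factors, 5 fell and 4 rose in tKO from 0 to 2 ng/ml, where 10.4% of all genes were called lower and 7.59% higher. Satb1, an organizer of the Th2 locus, fell by 2.62 (adjusted p = 1.42e-04), Nfil3 by 1.52 (adjusted p = 4.63e-04), Batf by 1.81 (adjusted p = 9.92e-04) and Gfi1 by 1.87 (adjusted p = 0.00107). Bhlhe40 in tKO at 2 ng/ml was at 334.5 and 253.7 FPKM against 42.8 and 46.3 in WT (2.68 ± 0.30, adjusted p = 5.71e-05). Junb, which takes part in Il4 activation, was at 613.4 and 546.1 against 144.2 and 96.9 (2.28 ± 0.20, adjusted p = 9.87e-06). With DMOG, 8 of 15 were higher and 4 lower, led by Irf4, a factor needed for Th2 cytokines, at 258.3, 209.9 and 246.7 FPKM against 40.8, 38.2 and 40.1 with vehicle (2.55 ± 0.11, adjusted p = 3.27e-12).

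Factors that restrain Th2 genes gave 3 called lower and 1 called higher of 15 in tKO without TGF-b, with a median of -0.119. Foxp3, the factor of regulatory T cells, was at 51.4 and 50.5 FPKM in WT and 1.99 and 3.77 in tKO (-3.78 ± 0.28, adjusted p = 2.42e-06). Mbd2, a methyl-DNA binding repressor of Il4, was lower by -0.74 ± 0.15 (adjusted p = 0.00601; 0.0875 without WT replicate 2). Sox4, a TGF-b target that blocks GATA3, was at 1.58 and 2.03 FPKM and 0.380 and 0.395 (adjusted p = 0.0492), a call lost without any single library at 0 or 2 ng/ml and without either WT library at 0.2 ng/ml (0.0528 to 0.262). Tbx21, the Th1 factor T-bet, was higher (1.96 ± 0.45, adjusted p = 0.0130; 0.0951 without tKO replicate 1 and 0.166 without WT replicate 2).

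In WT, Sox4 rose to 66.4 and 71.9 FPKM at 2 ng/ml (adjusted p = 1.22e-06), and in tKO it reached 5.01 and 8.02 (tKO minus WT -3.25 ± 0.30, adjusted p = 1.35e-05). Foxp3 in tKO rose to 86.7 and 141.6 FPKM at 2 ng/ml (4.89 ± 0.28 above 0 ng/ml, adjusted p = 4.85e-07). With DMOG at the same dose Foxp3 was at 7.21, 8.84 and 10.9 FPKM against 91.0, 61.6 and 84.0 with vehicle (-3.00 ± 0.15, adjusted p = 2.27e-11), and Sox4 at 0.566, 0.537 and 0.707 against 42.9, 51.7 and 49.98 (-4.94 ± 0.11, adjusted p = 7.70e-16). In all, 2 of the 15 restraining factors were called higher and 1 lower in tKO at 2 ng/ml. For DMOG these numbers were 4 and 8. The matching shares over all tested genes were 7.82% and 8.16% for the genotype, and 27.7% and 33.2% for DMOG. Whether the counts of this list depart from those shares was not tested. The 2 called higher in tKO were Tbx21, at 0 in both WT libraries and 28.4 and 15.6 FPKM in tKO (4.46 ± 0.45, adjusted p = 2.98e-05), and Runx3, a partner of T-bet (2.33 ± 0.28, adjusted p = 1.06e-04). Both were also higher with DMOG, Tbx21 at 53.5, 53.5 and 57.1 FPKM against at most 0.201 with vehicle (5.60 ± 0.10, adjusted p = 5.94e-17) and Runx3 at 44.5, 32.0 and 40.7 against 3.76, 1.91 and 2.48 (3.45 ± 0.16, adjusted p = 6.70e-12).

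Th2 effector and surface genes were the list with the largest median without TGF-b, 2.23. Of 13 tested, 9 were called higher in tKO and none lower, where 5.34% of all genes were called higher. Only these 13 of 21 list genes in the table reached the minimum for testing, which genes near 0 in WT can reach through tKO libraries. The count and the median of this list thus partly follow from that minimum. Il9, a cytokine of mast cell growth, went from 0.0801 FPKM and 0 in WT to 207.2 and 717.3 in tKO (8.54 ± 0.56, adjusted p = 9.75e-07). Ccr8, a chemokine receptor of Th2 and regulatory T cells, went from 67.5 and 87.1 to 349.0 and 379.5 FPKM (2.23 ± 0.19, adjusted p = 7.73e-06), and its ligand Ccl1 from 3.15 and 8.71 to 85.5 and 138.5 (4.11 ± 0.41, adjusted p = 3.01e-05). At the higher dose Il9 was still at 88.6 and 158.3 FPKM in tKO at 2 ng/ml (5.397 ± 0.56 above WT, adjusted p = 3.54e-05). Ccl1 was at 866.0 and 386.2 FPKM there. Il1rl1, the IL-33 receptor of mature Th2 cells and type 2 innate lymphoid cells, was at most 0.158 FPKM in every library at 0 and 0.2 ng/ml and at 0.642 and 1.36 in tKO at 2 ng/ml. Of the 5 markers of type 2 innate lymphoid cells, Rora was at 1 FPKM or more in every group, Klrg1 was at 0 in all tKO groups, and the summed level was 4.58 to 4.77 FPKM in WT and 5.30 to 8.09 in tKO without TGF-b, and 12.1 to 14.9 and 37.6 to 41.2 at 2 ng/ml. Most of that sum was Rora.

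**Figure D4:**
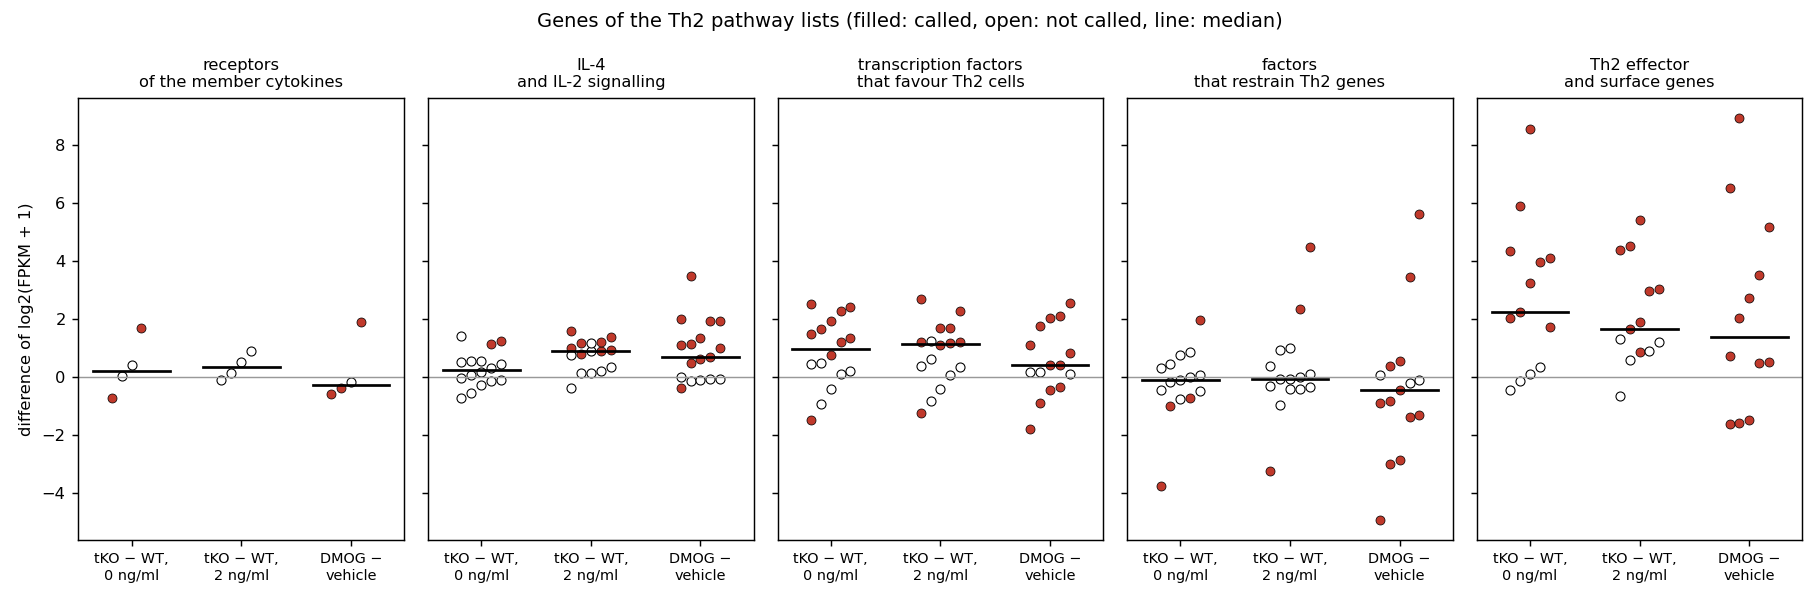
Differences of log2(FPKM + 1) for the tested genes of the 5 Th2 pathway lists (points) in tKO against WT at 0 and 2 ng/ml and DMOG against vehicle, with the median of each list (line). Effector and surface genes have the highest medians, 2.23 without TGF-b, and the medians of the restraining factors lie at or below 0, with single genes far on either side.

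The genes whose levels ran most like each member over the 12 libraries of the genotype table were found by Pearson's r of log2(FPKM + 1) among 10348 genes. This is a description of 6 groups and carries no p. Timd2, a TIM family surface receptor gene, ranked among the first 3 for Il4 (r = 0.961), Il13 (0.968) and Il24 (0.972), and its level was 13.2 to 20.9 FPKM in tKO without TGF-b and at most 0.622 in WT. Pde1a, a cyclic nucleotide phosphodiesterase gene, ranked first for Il5 (0.980) and among the first 3 for Il13 (0.949) and Il24 (0.970), at 71.6 to 93.3 FPKM in tKO without TGF-b and at most 0.491 in WT. Selp, which encodes P-selectin, ranked first for Il4 (0.966). For Gata3 the first was Cyb5r3, a cytochrome b5 reductase gene (0.955), with its own lower value at 0.2 ng/ml, 62.4 to 74.5 FPKM, than at 0 (97.7 to 106.6) and 2 ng/ml (81.3 to 89.7) in tKO. For Maf the first were Pdlim5 (0.974), 1110007C09Rik (0.970) and Timp2, an inhibitor of matrix proteases (0.968), each higher at both TGF-b doses than without it in both genotypes. For Il10 they were Srsf11, Picalm and Gm14005 (0.970 to 0.936), but the Il10 values of most libraries were 0. Among the members, r was 0.980 for Il13 and Il24, 0.961 for Il4 and Il24, 0.789 for Il4 and Gata3 and -0.572 for Il4 and Maf.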

How the data were processed

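For the 18 libraries, cDNA was made with the SMARTer Ultra low input chemistry, which keeps no strand, and the genotype and inhibitor experiments were read on different instruments, per the labels' protocols. Tools in the submitters' processing notes are Cufflinks, Cuffdiff, TopHat and Trimmomatic, with the build mm9, and without versions or settings. Each library's column holds FPKM, as deposited by the authors, and no counts were used. Rows without a symbol (8483 of 34309 in the genotype table) were left out, 17 and 291 exact duplicates were dropped, and remaining entries of a symbol were summed. The test was limma 3.58.1 (R 4.3.3) on log2(FPKM + 1), fitting each group's mean with a mean-variance trend over the 10354 and 9884 genes that averaged 1 FPKM or more in a table, with Benjamini-Hochberg adjustment. The test was tried on simulated data with the real group sizes: for tKO against WT at 0 ng/ml, on 10354 genes, it called 42% of genes changed by 1 and 90% of those changed by 2 on the log2 scale, and for DMOG, on 9884 genes, 96% and 100%. Changes were added only to genes that averaged above 2 on that scale, and each gene had the same mean in all groups beforehand. The rates therefore do not describe genes at 0 in a whole group. Unchanged genes called numbered 13 for the genotype and 9 for DMOG. An exact 0 in these tables can be a failed estimate. Alternatives covered pseudocounts, filters, scaling, the fit, a replicate block and leaving out each library. Same-numbered libraries deviated together most in tKO between 0 and 0.2 ng/ml (r over genes of 0.416). The other tKO dose pairs had 0.127 and 0.110, within the range of WT (0.186, 0.057 and 0.090). Between genotypes at the same dose r was 0.255, 0.061 and 0.043, and WT at 0 with tKO at 0.2 ng/ml had 0.250. The tKO libraries numbered 1 also shared Y-linked RNA. The number was taken to pair libraries within tKO, but the main test held no block, which was run as an alternative. The members and lists were chosen with earlier results of these data known. Named genes are the 7 members, the 3 genes most correlated with each, up to 4 called genes by smallest p and defining genes of each list, and chromosomal neighbours.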

Additional observations from a re-analysis of the deposited data

Results flagged for a closer look

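The change of 4 genes from 0 to 2 ng/ml TGF-b differed between the genotypes by the interaction test of limma, with 2 libraries per group. The tKO change minus the WT change, in log2(FPKM + 1), was -5.66 for Il4, -5.46 for Il24, -4.84 for Il5 and -3.56 for Il13. From 0 to 0.2 ng/ml it was -4.63 for Il24, -3.67 for Il4, -3.00 for Il13 and -1.63 for Gata3. All 8 values are negative. The 4 cytokines were at or near 0 in WT at every dose, so a fall could not have been seen there and their values mostly restate the fall in tKO.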

How the results depend on the processing

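Read depth is unknown, and 2 libraries per group limit the genotype table. Of 1657 recalculations of 84 member results, 1501 kept direction and side of the threshold, 135 lost and 11 gained a call, and 10 changed sign; where no cause is named, it was not tested. With every symbol tested, which raises the number of tests, the count of called members was 0 instead of 3 for tKO against WT at 0.2 ng/ml, 1 instead of 3 at 2 ng/ml, 0 instead of 1 for 0.2 against 0 and 2 against 0.2 ng/ml in WT, 0 instead of 3 for 2 against 0.2 ng/ml in tKO, and 0 and 2 instead of 4 for the interactions at 0.2 and 2 ng/ml. With a pseudocount of 0.1 it was 0 for 2 against 0.2 ng/ml in WT, 3 instead of 6 for 0.2 against 0 and 1 for 2 against 0.2 ng/ml in tKO, and 1 and 2 for the interactions. Without a mean-variance trend it was 0 for 2 against 0.2 ng/ml in WT, 1 for the same doses in tKO and 2 for the interaction at 0.2 ng/ml. With only the libraries compared, the latter 2 counts were 0 and 2. With the minimum of 1 FPKM applied to the highest group, 2 against 0.2 ng/ml in WT gave 0. Without replicate 1 of tKO at all doses, the interaction at 0.2 ng/ml gave 1.

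Leaving out single libraries gave 5 called members in each case for tKO against WT at 0 ng/ml, 2 to 5 at 0.2 ng/ml and 1 to 3 at 2 ng/ml. It gave 0 to 1 for 0.2 against 0 and for 2 against 0.2 ng/ml in WT, and 0 to 3 for 2 against 0.2 ng/ml in tKO. For the interactions it gave 0 to 3 at 0.2 ng/ml and 4 to 5 at 2 ng/ml. For DMOG it gave 4 to 6, partly because Il4 and Il10 fell under the minimum level. Signs changed only in differences that were not called. Maf became -0.045 for tKO against WT at 0.2 ng/ml and 0.33 for 2 against 0.2 ng/ml in tKO with equal FPKM sums, and the latter 0.051 with the single highest entry and 0.0582 without tKO replicate 2 at 0.2 ng/ml (range -0.38 to 0.0582). Il4, with -0.77 to 0.16 over single libraries, became 0.16 for tKO against WT at 2 ng/ml and -0.21 (range -0.21 to 0.73) for 2 against 0 ng/ml in WT without WT replicate 2 at 2 ng/ml. Il24 became 0.027 (range -0.18 to 0.027) for the latter without WT replicate 1 at 0 ng/ml. Gata3 for 2 against 0.2 ng/ml in WT became -0.00162 with equal sums, -0.072 without WT replicate 1 at 0.2 ng/ml and -0.036 without WT replicate 2 at 2 ng/ml (range -0.072 to 0.14).

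With equal FPKM sums the median of all genes was 0.453 instead of 0.00949 for 2 against 0.2 ng/ml in tKO, -0.145 instead of -3.36e-05 for tKO against WT at 0 ng/ml and -0.147 instead of -0.0338 for DMOG. The labels do not say what a shared replicate number marks. Same-numbered vehicle and DMOG libraries correlated at -0.142, -0.194 and 0.443 over genes. With the replicate block, 5, 3 and 3 members were called for tKO against WT at 0, 0.2 and 2 ng/ml and 6 for DMOG, as without it, and 5 instead of 4 for the interaction at 2 ng/ml, where Gata3 gained a call (adjusted p = 0.0435). The block within genotype also gave 5 there (0.0392), with 686 instead of 308 genes called in all, and 106 instead of 45 for the interaction at 0.2 ng/ml; no other member call changed with either block.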
